A study of Mus musculus with 2 samples.

Results

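The genes described here are transporters that carry amino acids across the plasma membrane. With earlier results of these data known, 10 were chosen by name: Slc3a2, Slc7a1, Slc7a5, Slc7a6, Slc7a7, Slc7a8, Slc7a11, Slc1a5, Slc38a1 and Slc38a2. Every probe set whose platform annotation gave exactly 1 symbol, and that symbol one of these, was taken, which gave 12 probe sets for the 10 of 22180 genes with such a probe set. Slc7a11 and Slc1a5 had 2 probe sets each. RNA came from mouse bone marrow-derived dendritic cells, which the submitters call GMDC, and no mouse strain, genotype, age or culture time is stated in the sources used here. The control group was 1 culture, and the labels do not say which medium it received. The other group was 1 culture given medium conditioned by topotecan-treated E0771 cells. E0771 is a mouse mammary tumour line, and topotecan inhibits topoisomerase I. With 1 array per culture there is no replicate error and no test was possible: every difference below is between 2 arrays, and the control does not separate topotecan treatment from tumour cell medium as such. The deposited values are read as log2 intensity. Differences are on the log2 scale, with the control subtracted from the conditioned-medium value, and each fold is the same difference as a ratio.

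Amino acids enter leukocytes through a small set of carriers. The SLC3A2 protein, also called CD98 or the 4F2 heavy chain, is a single-pass glycoprotein that brings the SLC7 light chains to the cell surface, where the light chain does the transport by exchanging one amino acid for another. Sodium-coupled carriers such as SLC1A5 and the SLC38 proteins bring in small neutral amino acids and glutamine, some of which the exchangers then trade for others. In activated dendritic cells and macrophages these carriers are known for supplying leucine to mTORC1, arginine to arginase and nitric oxide synthase, and cystine to glutathione. Several of the genes are known targets of ATF4, the transcription factor induced when amino acids are short, through a C/EBP-ATF response element.

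The promoters of 3 members are shown because the first and second hold copies of that element's core, TGATGNAA on either strand, and the third, of the member with the largest difference, holds none. Each run is the 250 bases before a RefSeq start site, read 5′ to 3′ on the gene's strand, with matches to the core in capitals. They are from RefSeq, build GRCm38.p6, at chr3:50443614-50443863 for Slc7a11, chr14:54417945-54418194 for Slc7a7 (its most upstream start site) and chr19:8713898-8714147 for Slc3a2, all on the minus strand.
Slc7a11: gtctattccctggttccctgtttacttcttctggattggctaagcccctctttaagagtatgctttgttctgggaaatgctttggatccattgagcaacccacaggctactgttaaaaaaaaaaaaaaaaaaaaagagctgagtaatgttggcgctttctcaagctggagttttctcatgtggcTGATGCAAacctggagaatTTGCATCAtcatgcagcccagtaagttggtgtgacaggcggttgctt
Slc7a7: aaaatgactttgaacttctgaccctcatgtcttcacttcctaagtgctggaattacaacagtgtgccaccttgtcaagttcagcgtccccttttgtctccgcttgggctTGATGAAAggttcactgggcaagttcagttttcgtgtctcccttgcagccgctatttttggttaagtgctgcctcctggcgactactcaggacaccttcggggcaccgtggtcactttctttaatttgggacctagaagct
Slc3a2: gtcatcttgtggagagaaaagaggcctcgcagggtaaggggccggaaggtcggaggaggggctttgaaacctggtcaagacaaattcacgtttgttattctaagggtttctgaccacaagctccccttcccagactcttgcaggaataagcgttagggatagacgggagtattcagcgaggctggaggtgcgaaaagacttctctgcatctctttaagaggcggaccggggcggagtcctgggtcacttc

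As a group the transporters did not differ in 1 direction. The heavy chain gene Slc3a2 and the light chain genes Slc7a11 and Slc7a8 were higher with conditioned medium, while the glutamine carrier gene Slc1a5 was lower. A gene was kept if its higher value reached the filter level of 4.10, which is the median value of the arrays, and all 10 members were kept. With conditioned medium 3 of the 10 passed 2-fold upward, against 8.63% of all 13712 kept genes. Downward, 1 of the 10 passed 2-fold, against 6.84% of all kept genes, and the other 6 transporters lay inside 2-fold. Slc7a8 reached the filter level only on the conditioned-medium array. With low values raised to that level, 2 of the 10 passed 2-fold upward, against 7.83% of kept genes. The median log2 difference was -0.08 over the members and -0.07 over all kept genes, whose quartiles were -0.45 and 0.36. For scale, probe sets of the same gene had log2 differences with a pooled SD of 0.46 within genes (652 genes, 787 degrees of freedom), and 5 of the 10 members differed by less than that. This SD says nothing about how far separate cultures would differ.

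**Figure D1:**
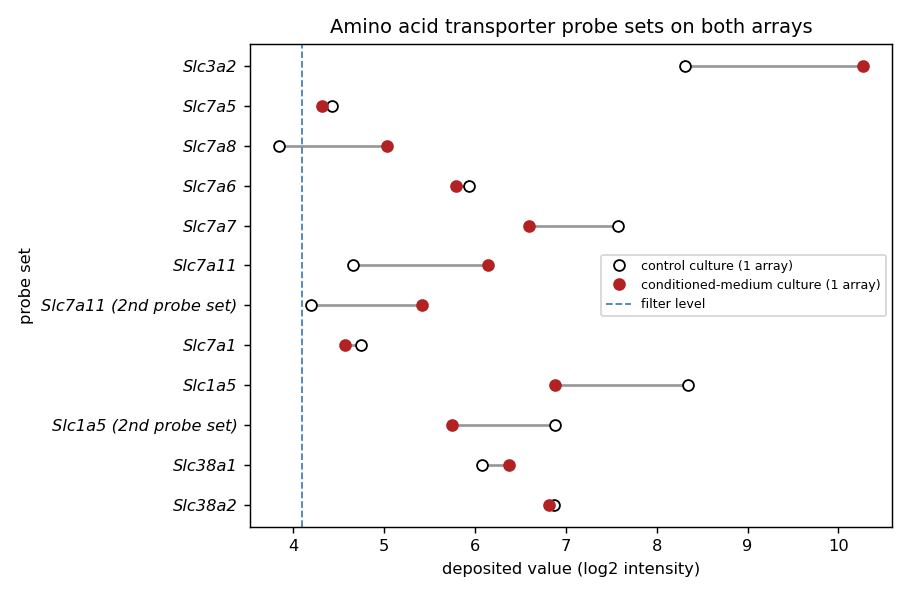
Deposited log2 intensity of each of the 12 transporter probe sets on the control array (open circles) and the conditioned-medium array (filled circles), with the filter level of 4.10 dashed. Both probe sets of Slc7a11 lie further right, and both of Slc1a5 further left, with conditioned medium; positions of different genes cannot be set against each other, since each probe set has its own brightness.

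Slc3a2 had the largest difference of the 10. Its log2 intensity was 8.31 in the control culture and 10.27 in the other, a log2 difference of 1.96, or 3.89-fold higher. Both values lay well above the filter level, but the gene has only 1 probe set. The part of background signal in this difference was not tested. Of all kept genes, 2.90% had a larger upward difference. Besides carrying light chains to the surface, the protein binds integrin beta chains.

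The 5 light chain genes that pair with this heavy chain were not uniformly higher. Their median log2 difference was -0.10. Of the 5, 2 passed 2-fold upward and 0 downward, against 8.63% and 6.84% of all kept genes. Slc7a5 and Slc7a8 encode the L-system exchangers LAT1 and LAT2, which carry large neutral amino acids such as leucine and tryptophan. Slc7a5 had log2 intensities of 4.42 without and 4.32 with conditioned medium, a difference of -0.10. Both values lay just above the filter level, where signal may be background, so these arrays show little about this gene beyond a low probe set signal. Slc7a8 had log2 intensities of 3.85 and 5.03, a difference of 1.18 (2.27-fold higher). Its control value lay under the filter level; measured from that level the log2 difference was 0.93, or 1.91-fold, and so just short of 2-fold.

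Slc7a6 and Slc7a7 encode the y+L-system exchangers, which export cationic amino acids such as arginine in trade for neutral ones with sodium. Slc7a6 had log2 intensities of 5.93 for the control and 5.79 for conditioned medium, a difference of -0.14. Slc7a7 had 7.57 and 6.60, a difference of -0.97 (1.97-fold lower), which put it just outside the 2-fold count. Of all kept genes, 7.26% had a larger downward difference than Slc7a7. Slc7a7 was thus lower where the light chain genes Slc7a8 and Slc7a11 were higher.

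Slc7a11 encodes xCT, the light chain of the xc- exchanger that takes up cystine in return for glutamate. The probe set that stands for the gene had log2 intensities of 4.66 for the control and 6.15 for conditioned medium, a difference of 1.49 (2.80-fold higher). The second probe set had 4.19 and 5.42, a difference of 1.23 (2.34-fold higher). The 2 probe sets thus gave the same direction, past 2-fold each, and differed from each other by 0.26, less than the pooled SD within genes. Of all kept genes, 4.65% had a larger upward difference. The control values of Slc7a11 were low, 4.19 lying just above the filter level, so the size of the fold is uncertain.

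Slc7a1 encodes CAT1, which carries arginine and other cationic amino acids without a heavy chain. It had log2 intensities of 4.75 for the control and 4.57 for conditioned medium, a difference of -0.18. This was smaller than the pooled SD within genes, and both values lay in the low range of the arrays.

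The 3 sodium-coupled neutral carriers held the lowest member. Slc1a5 encodes ASCT2, an exchanger that brings in glutamine. Its leading probe set had log2 intensities of 8.34 for the control and 6.88 for conditioned medium, a difference of -1.46 (2.76-fold lower). The second probe set had 6.88 and 5.75, a difference of -1.13 (2.19-fold lower). Both probe sets were past 2-fold in the same direction, all 4 values lay above the filter level, and the differences were 0.33 apart. Of all kept genes, 2.68% had a larger downward difference. Slc38a1 and Slc38a2 encode SNAT1 and SNAT2, sodium-coupled carriers of glutamine, alanine and other small neutral amino acids. Slc38a1 had log2 intensities of 6.07 and 6.38, a difference of 0.31. Slc38a2, a gene known to be induced by amino acid shortage, had 6.87 and 6.82, a difference of -0.05, which was between -0.08 and 0.05 under the other settings tried and so has no direction. The large difference of Slc1a5 was therefore not shared by the 2 SNAT genes.

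**Figure D2:**
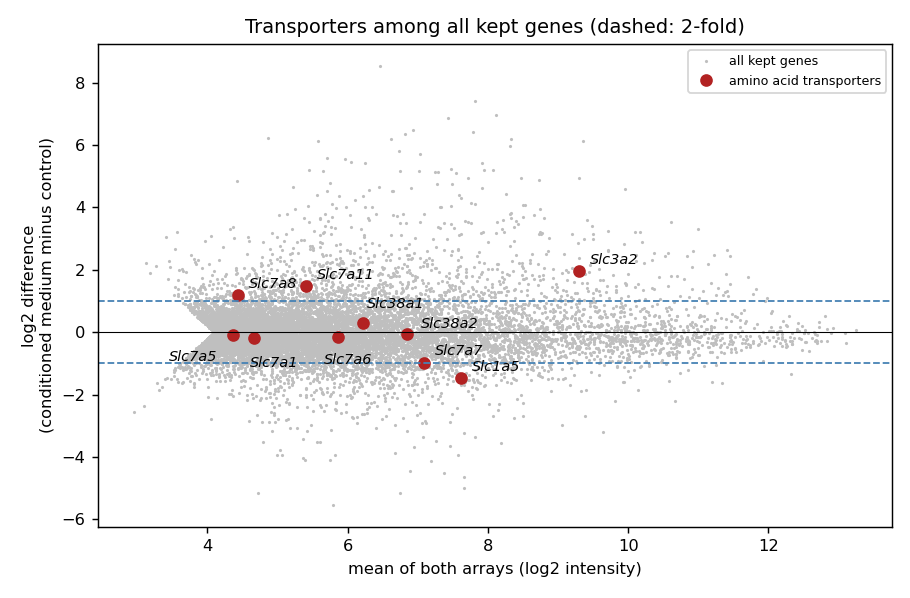
Log2 difference (conditioned medium minus control) against the mean log2 intensity of both arrays for the 13712 kept genes (grey) and the 10 transporters (red), with 2-fold dashed. Slc3a2 (1.96), Slc7a11 (1.49) and Slc7a8 (1.18) lie above the upper line, Slc1a5 (-1.46) below the lower line, and Slc7a7 (-0.97) on its edge.

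The printed promoters were set against these values. RefSeq promoters, of 300 bases each (250 before and 50 after a start site), were found for 7 of the 10 members, with 13 promoters in all; Slc1a5, Slc7a5 and Slc38a1 had none in the table. The C/EBP-ATF core TGATGNAA was found in 3 of the 13 member promoters, against 3.97% of all 32851 promoters. These belong to 2 of the 7 genes, Slc7a11 and Slc7a7, and those of Slc7a7 overlap and share a match. Slc7a11 held 2 matches in opposite orientation, one from 66 to 59 and the other from 47 to 40 bases before the start site. In all, 23 promoters of the 32851 (0.07%) held 2 or more matches, among them this one and the most upstream promoter of Slc7a7. Slc7a11 was 2.80-fold higher and Slc7a7 1.97-fold lower, so the 2 genes with the core differed in opposite directions. In that promoter of Slc7a7 one match lay from 141 to 134 bases before the start site, and the other crossed the start site, where the printed run ends, and is not in capitals. No match was found in the printed promoter of Slc3a2, the member with the largest difference, which says only that these letters are not in this window. The antioxidant response element core TGACNNNGC, bound by NRF2, was found in 4 of the 13 member promoters, against 12.4% of all promoters. They belong to 3 members, Slc38a2, Slc7a1 and Slc7a6, and those of Slc7a6 overlap and share a match. These 3 genes had log2 differences from -0.18 to -0.05. The E-box CACGTG, bound by MYC among others, was found in 0 of the 13 member promoters and in 7.15% of all. No member promoter held matches to more than 1 of the 3 motifs, so no matches of different motifs overlapped, and a match alone is not a binding site.

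Other amino acid transporters of the plasma membrane had mostly low and nearly level signal. Of 33 genes listed, 32 were measured and 17 kept. Of those 17, 2 passed 2-fold upward and 0 downward, against 8.63% and 6.84% of all kept genes. The list's median difference was -0.27 on the log2 scale. Slc6a19, a sodium-coupled carrier of neutral amino acids best known from gut and kidney epithelium, had log2 intensities of 4.07 in the control and 6.85 with conditioned medium (6.84-fold higher, and 6.72-fold from the filter level). Slc7a2, which encodes the inducible cationic carrier CAT2 of activated macrophages, had 3.65 and 4.87 (2.34-fold higher, but 1.71-fold from the filter level). The lowest were Slc36a2, a proton-coupled carrier of small amino acids (-0.86), and Slc7a4 (-0.80, and -0.12 from the filter level). In the lysosome, Slc15a3, a histidine and peptide carrier, was the 1 of 9 kept genes past 2-fold (9.34 and 10.45, 2.16-fold higher). Of all kept genes, 15.5% were past 2-fold in either direction. Slc38a9, the arginine-sensing carrier that signals to mTORC1, had a log2 difference of 0.80, and Slc36a4 (-0.77) and Slc38a7 (-0.44) were the lowest of that list, whose median was -0.24.

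Genes that sense amino acids upstream of mTORC1 had no common direction. Among 30 kept genes, 3 passed 2-fold upward and 2 downward, near the shares of all kept genes (8.63% and 6.84%). The median difference was -0.05. The sestrins, which relay leucine and stress signals to mTORC1, went both ways: Sesn3 had log2 intensities of 3.88 and 6.57 (5.54-fold from the filter level), Sesn2 3.29 and 4.41 (1.24-fold from that level), and Sesn1 6.51 and 3.34 (a log2 difference of -2.41 from that level). Lamtor4, a subunit of the lysosomal Ragulator scaffold, was 2.84-fold lower. Castor1, an arginine sensor, was 2.06-fold higher; it was named after its values were seen.

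The list for the amino acid starvation response, which holds the kinase GCN2, related kinases, ATF4 and genes of its response, was in part higher. Among 27 kept genes, 7 passed 2-fold upward and 1 downward, against 8.63% and 6.84% of all kept genes. The median difference was 0.24, with 17 of the 27 above 0 and 10 below. The 7 include Eif2ak2, itself a kinase of the list, and Sesn2, only 1.24-fold higher from the filter level. Atf4 itself had log2 intensities of 10.36 and 9.98 (-0.38); ATF4 is controlled largely by translation, which these arrays do not measure. Ddit3, which encodes the stress factor CHOP, was 3.21-fold higher (8.29 and 9.97). Trib3, a pseudokinase gene induced with it, was 2.19-fold higher (4.98 and 6.11). Asns, the asparagine synthetase gene and a widely used readout of amino acid shortage, had 7.43 and 7.56 (0.13). Other enzyme genes of the list were inside 2-fold, named here after their values were seen. Phgdh (-0.44), Aldh18a1 (-0.39), Psat1 (-0.35) and Shmt2 (-0.18) were lower, and Mthfd2 (0.30) and Chac1 (0.24) higher. Nupr1, a stress-induced chromatin protein gene (5.54-fold), and Eif2ak2, the gene of the interferon-inducible kinase PKR (3.58-fold), were the highest, and Pck2, a mitochondrial enzyme gene (-1.58), and Eif2ak4, which encodes GCN2 (-0.66), the lowest.

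Genes that use the transported amino acids were set beside their carriers. For cystine, 0 of 18 kept genes of glutathione synthesis and the NRF2 response passed 2-fold in either direction, against 15.5% of all kept genes. Their median log2 difference was -0.01. Gclm and Gclc, the subunits of the enzyme that starts glutathione synthesis from cysteine, had -0.50 and -0.58, and Nfe2l2, which encodes NRF2, had -0.54. Keap1, its inhibitor, had 0.90 and Txnrd1, a thioredoxin reductase, 0.73, and Gpx4, which reduces lipid peroxides, had the lowest value (-0.70). The higher signal of Slc7a11 was thus not accompanied by 2-fold differences in this list. For arginine, 2 of 14 kept genes passed 2-fold upward and 1 downward, against 8.63% and 6.84% of all kept genes, around a median of 0.09. The arginases Arg1 (4.16 and 6.86, 6.47-fold) and Arg2 (5.72 and 8.08, 5.12-fold) were higher. Gatm, the first enzyme of creatine synthesis, was lower (6.78 and 4.44, 5.05-fold). Oat, an ornithine enzyme, had -0.91. Nos2, the inducible nitric oxide synthase gene, was low on both arrays (3.83 and 4.56). Of the arginine carriers among the members, Slc7a1 (-0.18) and Slc7a6 (-0.14) differed by less than the pooled SD within genes, and Slc7a7 (-0.97) by more.

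For glutamine, 2 of 13 kept genes passed 2-fold upward and 2 downward, against 8.63% and 6.84% of all kept genes, around a median of -0.39. The 2 cytidine triphosphate synthases differed in direction: Ctps had log2 intensities of 5.78 and 7.24 (2.74-fold higher) and Ctps2 had 7.47 and 5.80 (3.16-fold lower). Gfpt1, which starts hexosamine synthesis from glutamine, was 2.36-fold higher, and Glud1, the glutamate dehydrogenase gene, was 2.02-fold lower (8.61 and 7.59). Slc1a5 was lower on the same array as Glud1 and Ctps2, while Ctps and Gfpt1 were higher there. After removing a level-dependent trend (lowess), 1 gene of this list was past 2-fold downward. For leucine and tryptophan, 3 of 16 kept genes passed 2-fold upward and 3 downward, around a median of -0.37. The same shares of all kept genes, 8.63% and 6.84%, stand beside these counts. The higher genes break down tryptophan: Ido1 (3.19 and 8.73, 24.8-fold from the filter level), Ido2 (4.32 and 5.99, 3.17-fold) and Kynu (3.86 and 5.31, 2.31-fold from that level). The lower genes break down branched-chain amino acids: Bcat2, a mitochondrial transaminase (3.62-fold), Mccc1, a subunit of the leucine pathway's carboxylase (2.49-fold), and Bckdhb, a subunit of the branched-chain keto acid dehydrogenase (2.31-fold). Kynu and Bckdhb were named after their values were seen.

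**Figure D3:**
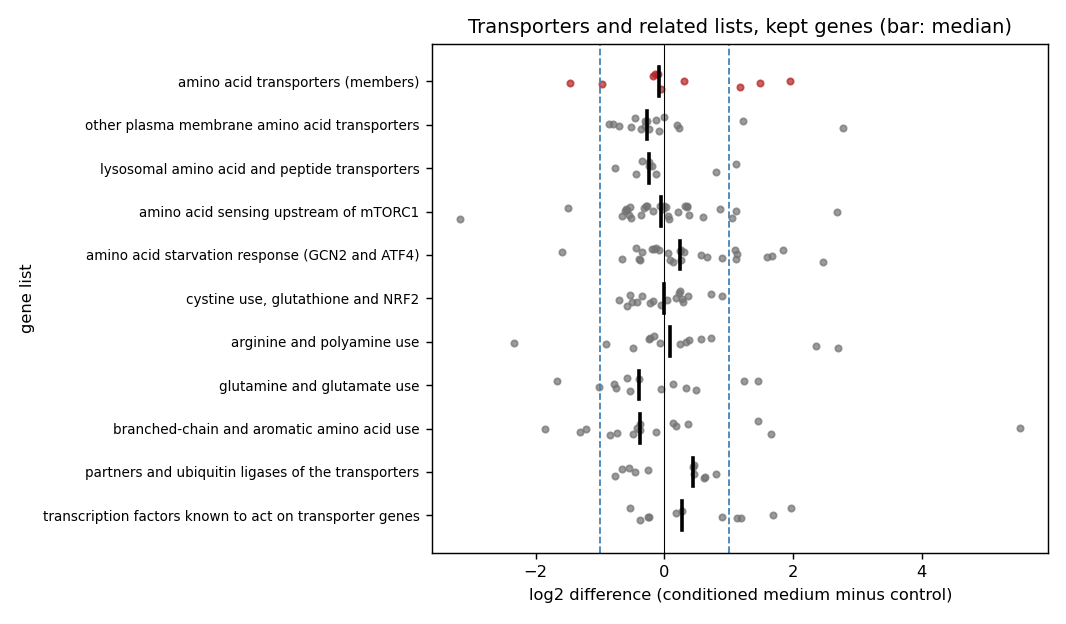
Log2 difference (conditioned medium minus control) of each kept gene in the 10 transporters (red) and in 10 related gene lists (grey), with the median of each as a black bar and 2-fold dashed. Medians range from -0.39 in the glutamine list to 0.44 in the partner list, all inside 2-fold, while single genes such as Ido1 (5.54) and Sesn1 (-3.17) lie far outside.

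Proteins that bind or remove the transporters showed 0 of 11 kept genes past 2-fold, against 15.5% of all kept genes. Their median log2 difference was 0.44. Bsg (0.80), a chaperone of other carriers, and Cd44 (0.63), which stabilises xCT, were the highest, and Lgals3 (-0.76), a lectin that binds CD98, and Rnf5 (-0.66), a ubiquitin ligase known to act on SLC1A5, the lowest. Among 11 kept transcription factor genes 4 passed 2-fold upward and 0 downward, against 8.63% and 6.84% of all kept genes, around a median of 0.27. They were Mxd1 (3.92-fold), a MAX partner that opposes MYC, Rela (3.23-fold), an NF-kB subunit, Hif1a (2.27-fold) and Myc (5.67 and 6.80, 2.20-fold). Hif1a, the hypoxia factor, was named after its values were seen. Nfe2l2 (-0.54) and Atf4 (-0.38) were the lowest of this list.

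The cell types in the cultures bear on all of these values, because in bulk RNA fewer cells of a type and less RNA per cell cannot be told apart. Of 11 dendritic cell markers measured, 2 were under the filter level on the control array, Zbtb46 (3.65 on each array) and Xcr1. With conditioned medium 2 were under it, Zbtb46 and Flt3. Those above it on both arrays included Itgax (8.18 and 7.15), Irf8 (10.42 and 9.54) and H2-Ab1 (10.16 and 11.30). Also above it on both were Batf3 (7.30 and 5.27), Clec10a (7.53 and 5.52), Irf4 (4.48 and 6.30) and Dpp4 (4.41 and 6.66). Of the 10 kept, 3 passed 2-fold upward (Irf4, Dpp4 and H2-Ab1) and 4 downward (Itgax, Flt3, Batf3 and Clec10a). Beside this and the marker counts below stand 8.63% of all kept genes upward and 6.84% downward. The median log2 difference of the 10 was -0.53. The list's summed linear intensity was 3295 for the control and 3771 for conditioned medium. A sum gives bright probe sets such as that of H2-Ab1 the most weight, so it does not show how most markers differed. All 11 macrophage and monocyte markers measured were above the filter level on both arrays. Their sums of 20598 and 22057 lean on bright probe sets such as Lyz2 (12.71 and 12.53) and Fcgr1 (11.45 and 12.44). Of the 11, 5 passed 2-fold downward: Adgre1 (9.16 and 6.87), Csf1r (8.58 and 5.66), Chil3 (10.55 and 7.57), Mrc1 (9.75 and 7.01) and Ccr2 (9.38 and 6.90). Upward, 1 passed, Ly6c2 (10.76 and 11.95). Of 16 neutrophil markers 10 passed 2-fold downward and 0 upward, and their summed linear intensity was 11190 for the control and 3097 for conditioned medium. Camp, Elane, Mpo and Retnlg were under the filter level with conditioned medium. The list was not uniform: 3 of the 16 were higher, all inside 2-fold, namely Csf3r (5.70 and 6.59), Cebpe (6.46 and 7.26) and Ly6g (6.14 and 6.88). Of 12 proliferation genes 10 passed 2-fold downward and 0 upward, with sums of 4853 and 1302. Slc1a5 and Slc7a7 were lower on the same array, and the part of these cells or of proliferation in that was not tested. Of 17 mammary tumour epithelial and stromal markers 9 were kept, 3 of them past 2-fold upward (Dcn, Cdh1 and Krt19) and 0 downward. The summed intensity of the 17 was 4458 and 4226, with most weight on Col1a2 (11.51 and 10.88) and Acta2 (10.08 and 9.08). The sum therefore does not show the higher Dcn (3.96 and 7.98) and Cdh1 (6.42 and 10.21). Epcam (2.67 and 3.24) and Krt18 (3.51 and 3.30) were under the filter level on both arrays. Tumour cell RNA as a part of the higher Slc3a2, Slc7a8 and Slc7a11 was not tested. The lists for other blood cells held no gene at least 2-fold higher: 0 of 4 kept T cell, 0 of 4 B cell, 0 of 2 NK cell and 0 of 5 mast cell and basophil markers, with Cd79b (-2.24) of the B cell list and Cpa3 (-2.81) and Fcer1a (-1.30) of the mast cell list at least 2-fold lower. Neither of the 2 erythroid markers measured was kept.

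Other ways to process the values moved single transporters across the 2-fold line but changed the direction of none that was past it. Slc3a2 stayed between 1.92 and 2.04, Slc7a11 between 1.36 and 1.55 and Slc1a5 between -1.49 and -1.30 on the log2 scale. These 3 were thus past 2-fold under every normalization tried. The filters could not move their values, and averaging probe sets could move only Slc7a11 and Slc1a5, which stayed past 2-fold. Slc7a8 fell short of 2-fold when its control value was raised to the filter level (0.93), and it was not kept under a filter at the 75th percentile. Slc7a7 was past 2-fold only after quantile normalization (-1.004). At 3-fold Slc3a2 alone was counted upward, against 4.14% of all kept genes, and 0 transporters downward, against 2.11%. At 1.5-fold the 3 upward genes were counted as before, against 16.6% of kept genes, and Slc7a7 joined Slc1a5 downward, against 17.9%.

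**Figure D4:**
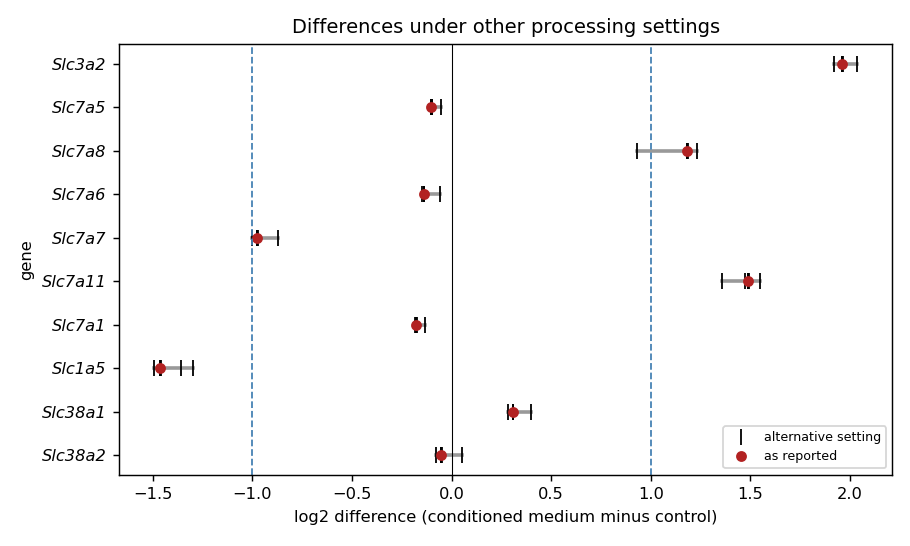
Log2 difference (conditioned medium minus control) of each transporter as reported (red points) and under the alternative normalizations, probe set rules and filters (ticks), with 2-fold dashed. Slc3a2, Slc7a11 and Slc1a5 stay outside the dashed lines at every tick, Slc7a8 and Slc7a7 straddle one, and the other 5 genes stay between them.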

How the data were processed

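The authors deposited 1 table of values per probe set for 2 arrays, which are taken here as log2 intensity: they ran from -0.26 to 13.50, with medians of 4.10 and 4.09. Affymetrix Expression Console is named in the submitters' processing notes. Version, algorithm and genome build are not given in the sources, and the log2 scale is inferred from the range. Total RNA was extracted with Trizol and labelled with biotin, per the labels' protocols. The 2 arrays have nearly the same distribution, so these values could not show a general rise or fall.

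A gene was represented by its probe set with the highest mean of both arrays. Of 22180 genes 13712 (61.8%) were kept at the filter level of 4.10; "from the filter level" means that lower values were raised to it. No test was made, and the number of arrays limits the precision. The members and the 20 gene lists were chosen with earlier results of these data known. The 10 pathway lists held 204 entries, 190 measured and 166 kept, with 7 genes in more than 1 list. Named genes were all members, the 2 highest and 2 lowest kept genes of each list for which values are given, and Atf4, Ddit3, Asns, Trib3, Nfe2l2, Myc, Gclm, Arg1 and Nos2; a further gene of the rule is not reported here. The exceptions, and the genes of the marker lists, were chosen after seeing values. No gene was sought for a pattern like a member's, since 2 arrays give no pattern. Counting was tested on simulated data. Promoters were searched on both strands. Scripts ran in Python 3.11.15 with pandas 2.3.3, numpy 2.4.6, statsmodels 0.14.6 and matplotlib 3.10.9.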

Additional observations from a re-analysis of the deposited data

How the results depend on the processing

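Values were recomputed after quantile normalization, after removing a level-dependent trend (lowess with fraction 0.3 and 3 iterations), after centring, and with all probe sets of a gene averaged. The filter was dropped, set at the 75th percentile or put on the mean of the arrays, low values were raised to the filter level, and the threshold was set at 1.5-fold and 3-fold. All 77 values of single transporters moved by less than the pooled SD of 0.46 between probe sets of a gene. Many of them could not move, because the filters only decide which genes are kept. Averaging probe sets could change only Slc7a11 and Slc1a5, raising low values only Slc7a8, and centring shifted every gene alike. The count of 3 transporters at least 2-fold higher was 1 at 3-fold, and 2 under the filter at the 75th percentile and with low values raised. The count of 1 at least 2-fold lower was 2 after quantile normalization and at 1.5-fold, and 0 at 3-fold. The median of the transporters stayed between -0.09 and 0.00. Of 280 values for the related lists 27 moved by more than 1.5 times, or for a median by more than that SD, and 26 of these were counts. No paired analysis was possible because each condition has 1 array, which also leaves no replicate to leave out. Signal near 4.10 may be background, which limits Slc7a5, Slc7a1 and the control values of Slc7a8 and Slc7a11.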
